A study of Mus musculus with 11 samples.

Results

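The comparison set the 6 libraries titled day 39 of DSS colitis against the 5 titled day 0, in macrophages sorted from mouse colon, with the libraries of both genotype labels pooled. The description rests on 100 genes that had at least 1000 counts in each of the 11 libraries, out of 23282 gene entries. These are called the abundant genes below. DSS, dextran sodium sulphate, is a polymer that damages the colonic epithelium when given in drinking water and causes colitis. Per the labels it was given at 2.5% for 5 days, and no further round of DSS is named in them. Day 0 held 3 libraries labelled Csf1r-EP4-/- and 2 labelled WT, and day 39 held 3 of each label. EP4, encoded by Ptger4, is a receptor for prostaglandin E2, and Csf1r encodes the receptor for a growth factor that macrophages depend on. How the EP4 deletion was made, and the age of the mice, are not given in the sources used here. Cells were sorted as CD45+CD11b+Ly6G-Ly6C-MHCII+CD64+. The names given to the 6 late libraries when they were deposited read day 35 where the titles read day 39, and the WT library titled 2 at day 0 carries the number 3 there. Nothing in the labels says that the libraries of a group came from separate mice, so the p-values measure the spread between these libraries only.

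Colon macrophages take up bacteria and dying cells, present antigen on MHC class II molecules and are replaced from blood monocytes, also after inflammation. Their RNA pool holds, beside housekeeping transcripts, high levels of MHC class II, complement C1q, lysosomal and immediate-early transcripts, the last of which also respond to cell isolation. The day 39 against day 0 contrast asks which of these had a different level late in the colitis course, whatever the genotype label.

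Of the 100 abundant genes, 2 rose at day 39 and 0 fell, and both that rose are noncoding RNAs. Malat1, a long nuclear RNA, was 2.34 times as high in mean level, and Rn45s, the precursor of ribosomal RNA, 1.52 times. The other 98 abundant genes, which include those of antigen presentation, complement, lysosomes, actin and ribosomes, did not pass the test. In such bulk libraries, fewer cells of a type and less RNA per cell cannot be told apart. Over all 6987 genes tested, 0.358% were called higher and 0.0143% lower, in edgeR's quasi-likelihood test with Benjamini-Hochberg adjustment over all tested genes at 0.05. Before adjustment, 4 of the 100 abundant genes had a p under 0.05, against 16.5% of all tested genes. With the spread estimated on the abundant genes alone it was 13 of the 100 and 1160 of the 6987 tested. DESeq2 gave 0 and 1445, so this contrast depended on the fit. The 98 that did not pass are not shown to have been alike on both days: over the 100 genes the median standard error of the log2 fold change was 0.84, and the level of an abundant gene varied by a median of 5.44-fold over the 11 libraries, from 2.30-fold for Eef2 to 35.2-fold for Atf3.

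The libraries held 4003299 to 14207919 counts, and 3818 to 7450 gene entries had a count. The abundant genes took 23.1% to 35.4% of all counts per library, and Rn45s alone 8.04% to 16%. The minimum in every file removes a gene that was near 0 in any library, including any that fell to near 0, so the 100 cannot stand for all changes between the days. Just inside the limit were Celf2 with 1053 counts in its lowest library, Atp2b1 with 1009, Rplp2 with 1008 and Vim with 1001. Just outside were Aldoa with 951, Aldh2 with 939, Rn4.5s with 931 and Hba-a1 with 930. At least 300 counts in every file gave 203 genes, again with 2 called higher and 0 lower. Among the day 0 libraries, the 2 labelled Csf1r-EP4-/- with numbers 2 and 3 stood apart: they had the lowest level of the 11 for 20 and 21 of the 100 genes, and the 2 highest summed levels of muscle genes. Their summed stromal level was also the highest, at 23873 and 24087 CPM, but WT library 2 of day 0 was close, at 19487 CPM. Library 1 of the same label and day deviated in the other direction. It had the highest level of the 11 for 18 of the 100 genes, and its median log2 deviation from the mean of each gene was 0.46, against -0.46 and -0.49 for libraries 2 and 3. Among the day 39 libraries, Csf1r-EP4-/- 3 was highest for 20. The signs of many small differences turned with these 3 libraries: 61 of the 100 log2 fold changes were above 0 with all libraries, 44 without libraries 2 and 3, called the pair below, and 76 without library 1. In all, 41 of the 100 changed sign in at least 1 of these settings. The pair was chosen after the data were seen. Without it, library 1 is the only day 0 library labelled Csf1r-EP4-/-, so values without the pair lean on library 1. Calls lost without the pair were also tested on fewer libraries. Ptger4 had 1350, 0 and 890 counts in the day 0 libraries labelled Csf1r-EP4-/- and 0 in both WT ones. At day 39 it had 1, 8 and 4501 counts under the Csf1r-EP4-/- label and 1481, 152 and 7286 under WT. At day 0 these counts go against the labels, since the label that names the deletion had the counts. At day 39 its libraries 1 and 2 were below all WT libraries, and only its library 3 went against the label, above 2 of the 3 WT libraries. Whether the counted 3' tags lie in the deleted part is not given in the sources used here, so the genotype enters below only as a label.

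**Figure D1:**
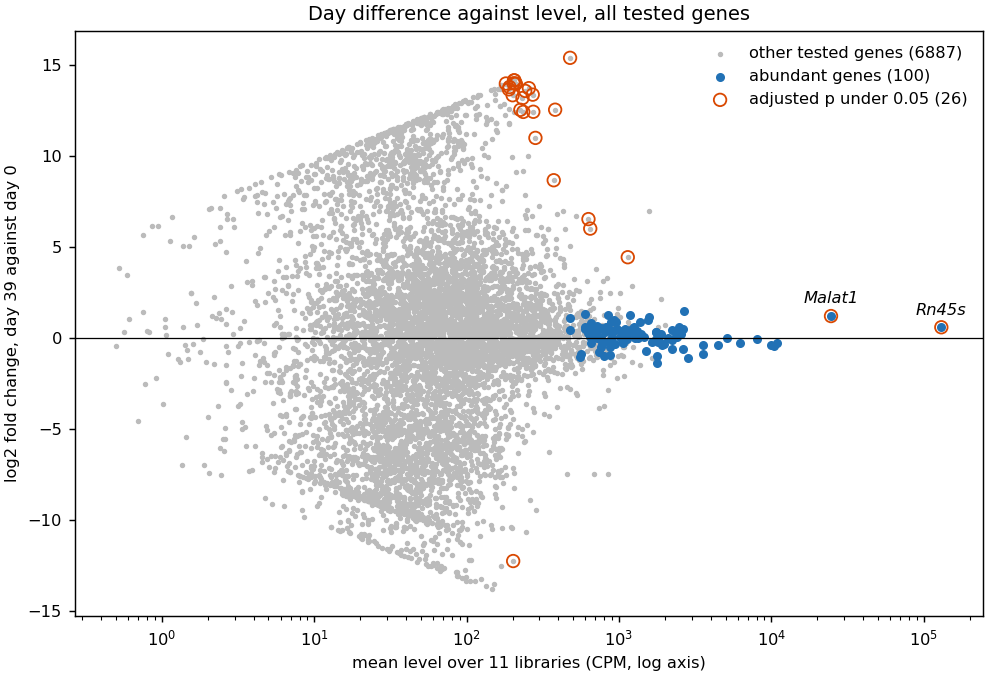
Difference between the days against level for all 6987 tested genes. The horizontal axis is the mean CPM over the 11 libraries on a log axis, the vertical axis the fitted log2 fold change of day 39 against day 0, blue points are the 100 abundant genes and orange rings the 26 genes past an adjusted p of 0.05. The abundant genes lie between -1.35 and 1.5, and 2 of them, Malat1 and Rn45s, are ringed.

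Promoter sequence was at hand for 74 of the 100 genes, as RefSeq windows of the 250 bases before each start (build GRCm38.p6). The windows of Malat1 and Il1b are printed because these genes had the smallest p-values among the abundant genes with a window. The Malat1 window is chr19:5802673-5802922 and that of Il1b chr2:129371140-129371389, both on the minus strand. Capitals mark matches to TGACG or its reverse complement, the short core of the cAMP response element, in Malat1 and to TATAAA in Il1b.
Malat1: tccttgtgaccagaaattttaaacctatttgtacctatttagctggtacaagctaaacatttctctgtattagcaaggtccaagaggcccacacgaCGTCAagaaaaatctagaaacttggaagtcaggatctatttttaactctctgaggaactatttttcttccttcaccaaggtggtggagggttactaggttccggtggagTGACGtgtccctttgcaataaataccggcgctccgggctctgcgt
Il1b: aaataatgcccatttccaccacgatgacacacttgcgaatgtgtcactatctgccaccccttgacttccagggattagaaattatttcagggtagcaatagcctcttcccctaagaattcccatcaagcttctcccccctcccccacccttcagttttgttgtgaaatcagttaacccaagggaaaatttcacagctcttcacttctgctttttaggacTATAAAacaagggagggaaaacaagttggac
The Malat1 window held 2 such cores, 1 on each strand, and the Il1b window 1 TATA box. The 6 motifs below were searched on both strands in the 92 windows of these genes and in all 32851 windows of the table. TGACG was found in 32.6% of the windows of abundant genes and in 17.8% of all windows, GGGCGG (SP1) in 52.2% and 32.7%, and TATAAA in 18.5% and 12.4%. CCAAT was found in 33.7% and 33.8%, the AP-1 letters TGANTCA in 5.4% and 6.7%, and the heat-shock letters GAANNTTC in 7.6% and 6.7%. These shares describe windows and not binding, and no test was made of them.

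Malat1 is kept in the nucleus, where it associates with splicing bodies. Levels are given in CPM, counts set to a common library total after TMM scaling, which adjusts library sizes for differences in composition. At day 0, Malat1 stood at 16501, 10923 and 11154 CPM in the libraries labelled Csf1r-EP4-/- and at 17708 and 14810.3 CPM in the WT ones. At day 39 its lowest value was 18886, its median 33744 and its highest 46411 CPM. All 6 day 39 libraries were above all 5 day 0 libraries, which held for 2 of the 100 abundant genes, Malat1 and Hsp90aa1, and for 1.6% of all tested genes. In the other direction the groups were apart for 0 of the 100 and for 0.157% of all tested genes. The mean was 14219 ± 3082 CPM at day 0 (SD, n = 5) and 33262 ± 9097 at day 39 (SD, n = 6). The fitted log2 fold change was 1.22 ± 0.21 (SE), at an adjusted p of 3.49e-05 in edgeR. Under the WT label alone the log2 fold change was 0.82 and under Csf1r-EP4-/- 1.55, and the difference between the labels, 0.73 ± 0.43 (SE), did not pass (edgeR adjusted p = 0.41). Malat1 overlaps Mascrna, a small RNA processed from its end, and counts of the pair could not be told apart. Without the 2 day 0 libraries that stood apart, the log2 fold change was 0.85 with an edgeR adjusted p of 0.142, which ends the call. It then lay 0.57 below the median of all tested genes, against 1.17 above it with all libraries. These medians are over different genes: 1.41 over 9153 tested without the pair and 0.06 over 6987 with all libraries. The shift is therefore not one of Malat1 alone. The call also ended without WT library 1 or 2 of day 0 (edgeR adjusted p = 0.0604 and 0.0718). It ended as well with upper-quartile scaling (log2 fold change 0.32, adjusted p = 0.862), in DESeq2 (1.03, 0.642), with no filter (1.0, 0.312), with a filter on an average of 1000 counts (1.04, 0.163) and in the Csf1r-EP4-/- libraries alone (1.4, 0.0668).

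Rn45s is the precursor that is cut into ribosomal RNAs. It is encoded in many near-identical copies, so its count is uncertain. Whether 3' tags count Rn45s and Malat1 in proportion to their amount was not tested. Its day 0 levels were 77296, 133349 and 86625 CPM under the Csf1r-EP4-/- label and 90213 and 120137 CPM under WT. Day 39 ran from 100346 over a median of 155637 to 216400.0 CPM. The groups overlapped, with 4 of the 6 day 39 libraries above the highest at day 0. The log2 fold change was 0.61 ± 0.11 (SE), from 101524 ± 23959 (SD, n = 5) to 154316 ± 39072 CPM (SD, n = 6), with an edgeR adjusted p of 4.77e-05. For 99 of the 100 genes these errors come from the trend of all genes against level. With the spread estimated on the abundant genes alone, the adjusted p over all tested genes was 0.0383 for Malat1 and 0.160 for Rn45s, so the call of Rn45s was lost. Without the 2 day 0 libraries that stood apart the log2 fold change was 0.54, close to that with all libraries, and its edgeR adjusted p was 0.101. Leaving out single libraries of day 0 ended the call for Csf1r-EP4-/- 1 and 3 (edgeR adjusted p = 0.213 and 0.369) and for WT 1 and 2 (0.296 and 0.0610). Against the median of all tested genes, Rn45s lay 0.55 above with all libraries and 0.27 above with upper-quartile scaling, where it was itself at -0.32. It lay below that median by 0.17 with 1 coefficient per group, by 0.28 in limma-voom and by 0.87 without the 2 libraries. In that last setting the median was 1.41 over 9153 tested genes, against 0.06 over 6987 with all libraries. The noncoding RNA list held 10 tested genes, of which Malat1 and Rn45s were called higher and 0 lower, and its summed level had a day 39 to day 0 ratio of 1.61. Malat1 and Rn45s made up 97.6% of that sum at day 0 and 98% at day 39, so it restates them, and the ratio of the other 13 genes was 1.35 with 1 of 6 day 39 libraries above the highest of day 0. Without the 2 libraries the ratio of the whole sum was 1.66, with an exact permutation p of 0.0595.

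**Figure D2:**
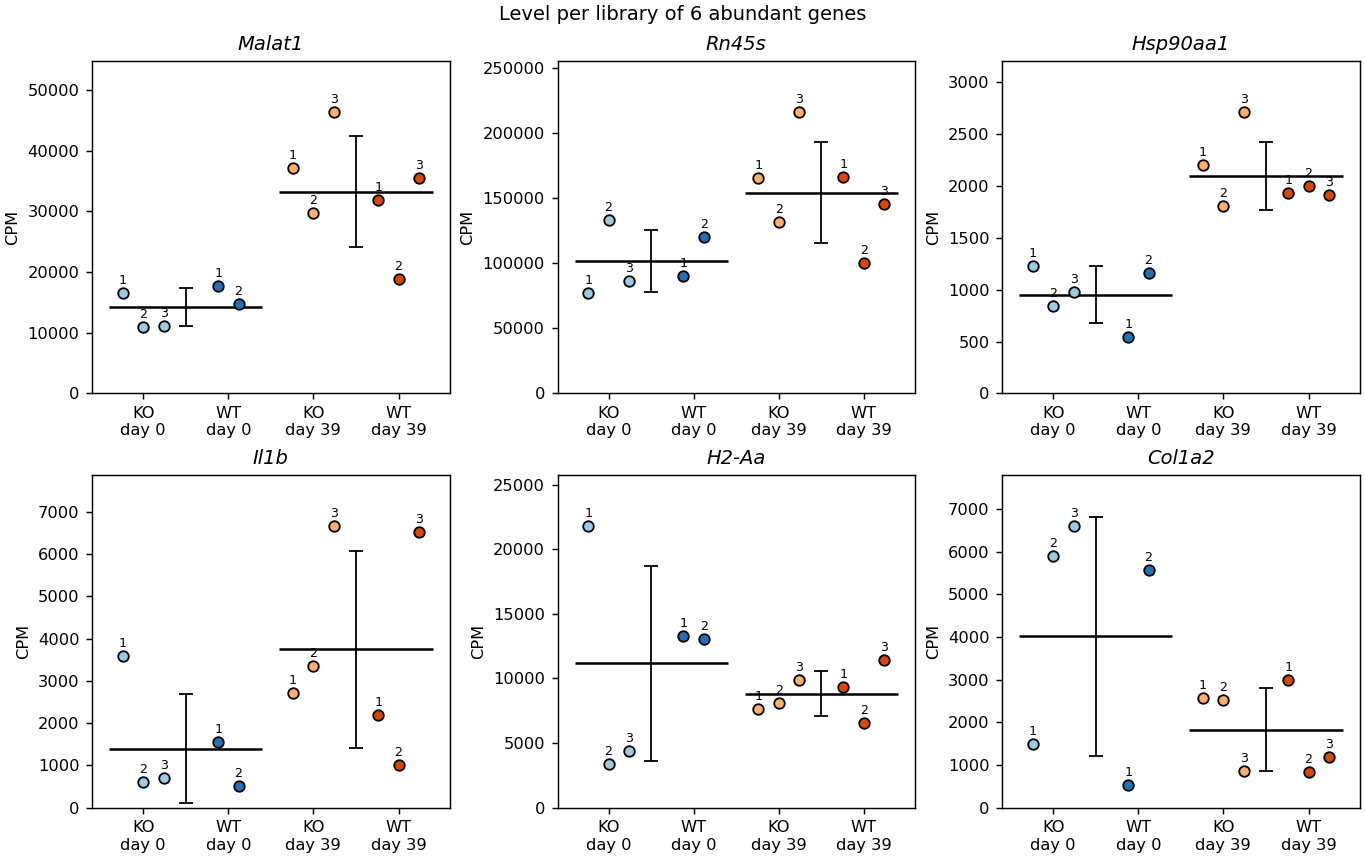
Level of 6 abundant genes in each library. The vertical axes are CPM from 0, points are libraries with their replicate number, KO stands for the Csf1r-EP4-/- label, and the bars are the mean and SD over the 5 day 0 and the 6 day 39 libraries. Malat1 and Hsp90aa1 do not overlap between the days, while H2-Aa and Col1a2 are spread most widely at day 0.

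Heat-shock and endoplasmic reticulum chaperones help proteins fold, and 3 of them were abundant. Hsp90aa1, the inducible cytosolic HSP90, stood at 1229, 845 and 978 CPM in the Csf1r-EP4-/- libraries of day 0 and at 542 and 1164 CPM in the WT ones. Its day 39 values ran from 1803 over a median of 1969 to 2714 CPM, so every day 39 library lay above every day 0 library. The log2 fold change was 1.16 ± 0.71 (SE) and did not pass the test (edgeR adjusted p = 0.486), and it was 0.97 without the 2 day 0 libraries that stood apart. Hspa5, the main chaperone of the endoplasmic reticulum, had a log2 fold change of 0.51, the same without the pair. Calr, a calcium-binding chaperone that also takes part in loading MHC class I, was at 0.37, at -0.02 without the pair and at 0.80 without library 1. Of the 36 tested genes of the chaperone list, 1 was past the threshold, the small heat-shock gene Cryab, and it was higher at day 39. Cryab had 5, 1866 and 2 counts in the Csf1r-EP4-/- libraries of day 0 and 0 in the WT ones, so it passed the filter on low counts through day 39 alone and is given as a description with no test. The summed level of the list, over all 39 of its genes in the files whether or not they passed the filter, was 11996 ± 3155 CPM at day 0 (SD, n = 5) and 17839 ± 3003 at day 39 (SD, n = 6), with 5 of 6 day 39 libraries above the highest of day 0. That ratio of 1.49 had an exact two-sided permutation p of 0.00866 and an adjusted p of 0.130 over the 30 list sums and shares tested together. Without the 2 libraries it was 1.53, with an exact permutation p of 0.0357 and an adjusted p of 0.255. With Cryab taken out of the sum, which is a description with no test, the ratio was 1.4, again with 5 of 6 day 39 libraries above the highest of day 0.

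Il1b encodes interleukin-1 beta, a cytokine made by activated macrophages, and had the largest log2 fold change of the 100. At day 0 it stood at 3583, 611 and 692 CPM under Csf1r-EP4-/- and at 1559 and 515 CPM under WT. At day 39 it ran from 1008 over a median of 3034 to 6667 CPM. The groups overlapped, since 1 day 0 library was above 4 of the 6 late ones. The log2 fold change of 1.5 ± 0.57 (SE) did not pass in edgeR (adjusted p = 0.160), whereas limma-voom, which called 2.25% of all tested genes, gave an adjusted p of 0.0429. The log2 fold change in edgeR was 0.96 without the 2 day 0 libraries that stood apart and 2.16 without Csf1r-EP4-/- 1 (edgeR adjusted p = 0.395 and 0.0589). Cxcl2, a chemokine that draws neutrophils, had a log2 fold change of -0.15 and an edgeR adjusted p of 0.980, with -0.88 without the pair and 0.48 without library 1. Nfkbia, the inhibitor that NF-kB itself induces, was at 0.47, at -0.06 without the pair and at 1.01 without library 1. Among the 26 tested genes of the chemokine and cytokine list 0 were called in either direction, with a median log2 fold change of 0.69 against 0.06 over all tested genes.

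Immediate-early genes encode transcription factors and feedback regulators that are induced within minutes of a signal. Of the 10 that were abundant, 7 had a log2 fold change above 0 and 3 below, and 0 passed the test. The values were 1.27 for the antiproliferative gene Btg1, 0.90 each for Fos and Atf3, 0.64 each for Jun and Klf6, 0.22 for Junb and 0.19 for Jund. Below 0 were the phosphatase Dusp1 at -0.04, the mRNA-decay factor Zfp36 at -0.23 and Fosb at -0.31. Without the pair 4 of the 10 were above 0 and 6 below: Btg1 was at 0.97, Fos at 0.41, Atf3 at 0.10 and Jun at 0.06, while Klf6, Jund, Junb, Zfp36, Dusp1 and Fosb ran from -0.10 to -0.98. Without library 1 all 10 were above 0, from 0.11 for Zfp36 to 1.42 for Fos. Fos ran from 409 to 1694 CPM at day 0 and from 844 to 2651 at day 39, with 4 of 6 late libraries above the highest early one. Atf3 varied most of all 100 genes, from 73.3 CPM in the day 0 Csf1r-EP4-/- library 3 to 2577 CPM at day 39. The summed level of the list was lowest in the 2 day 0 libraries that stood apart, at 11323 and 8379 CPM, against 21213 to 24785 CPM in the other day 0 libraries and 15280.4 to 26804 CPM at day 39. Its ratio of day 39 to day 0 was 1.29 with all libraries and 0.997 without those. Pim1, a kinase induced by cytokines, and Cdkn1a, the p21 cell-cycle inhibitor, had log2 fold changes of 1.0 and 0.98 and did not pass. Pim1 was at 0.28 without the pair and at 1.66 without library 1, and Cdkn1a at 0.34 and 1.07.

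**Figure D3:**
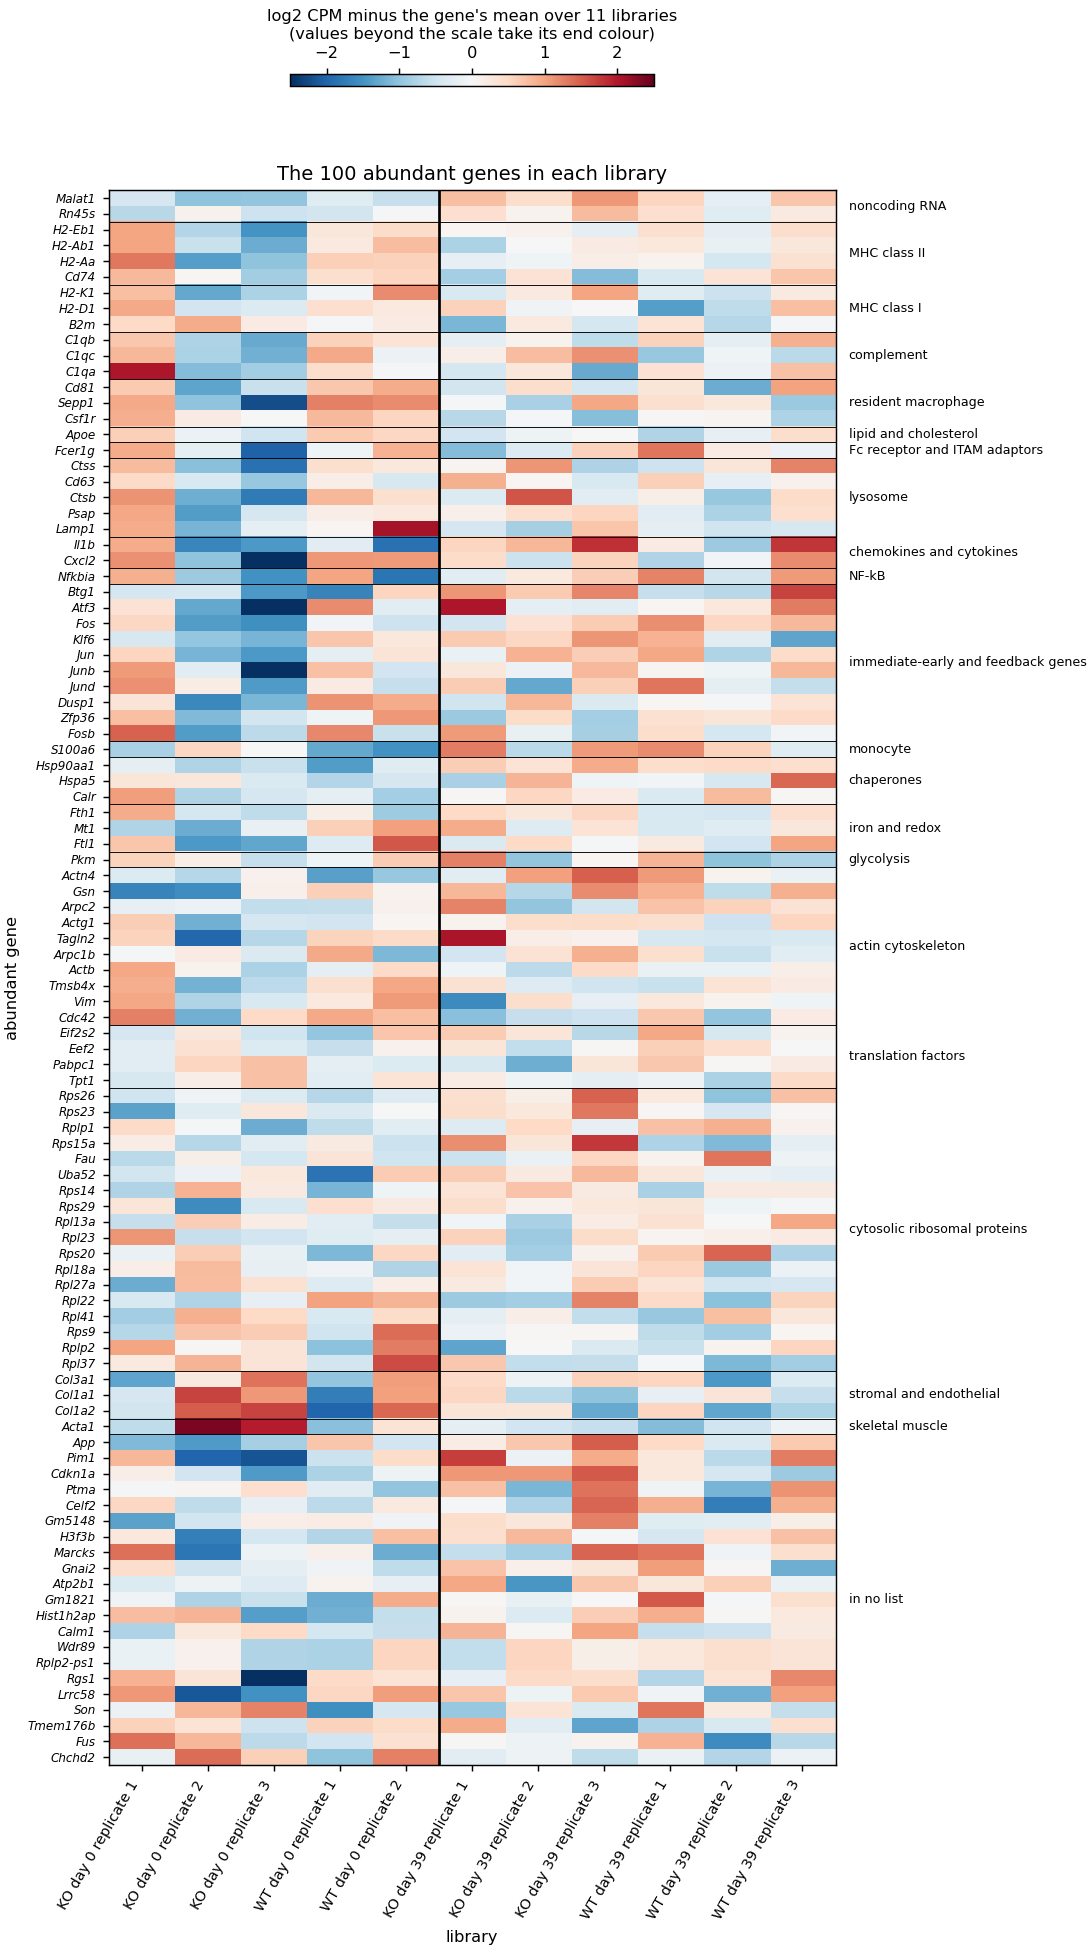
The 100 abundant genes in each of the 11 libraries, in rows ordered by gene list. Colour is the log2 CPM minus the mean of that gene over the 11 libraries, from blue for lower to red for higher, values beyond the scale take its end colour, and a vertical line parts day 0 from day 39. The day 0 libraries Csf1r-EP4-/- 2 and 3 are blue over the complement and lysosome rows and over the MHC class II and immediate-early rows except Cd74 and Jund in library 2, and red over Col1a1, Col1a2 and Acta1.

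MHC class II molecules carry peptides to CD4+ T cells, and 4 genes of the list were abundant. All 4 had log2 fold changes below 0 and none passed: Cd74, the invariant chain, was at -0.38, H2-Aa at -0.35, H2-Ab1 at -0.28 and H2-Eb1 at -0.06. H2-Aa stood at 21826, 3374 and 4385 CPM in the day 0 Csf1r-EP4-/- libraries and at 13304 and 13081 CPM in the WT ones, and ran from 6517 over a median of 8722 to 11428 CPM at day 39. The late libraries thus lay within the range of the early ones, below 3 of them and above the other 2. The summed level of the list was 32670.5 ± 18606 CPM (SD, n = 5) at day 0 and 27305 ± 5019.8 (SD, n = 6) at day 39, a ratio of 0.836 with an exact permutation p of 0.511. Without the 2 day 0 libraries that stood apart, which were chosen after the data were seen, the ratio was 0.605. Its exact permutation p was 0.0119 and its adjusted p 0.179. Without Csf1r-EP4-/- library 1 of day 0 it was 1.02, with an exact permutation p of 0.948, so the direction of the sum turned with the day 0 libraries kept. H2-Aa was at -0.97 without the pair and at 0.26 without library 1. The sign for H2-Aa, H2-Ab1 and H2-Eb1 changed in some settings, and every adjusted p of these genes stayed above 0.05. B2m, the light chain of MHC class I, was at -0.59, H2-D1 at -0.21 and H2-K1 at -0.09, again with 0 called. Without the pair B2m, H2-D1 and H2-K1 were at -0.55, -0.66 and -0.76, and without library 1 at -0.56, 0.05 and 0.19.

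C1qa, C1qb and C1qc encode the chains of C1q, which starts the classical complement pathway and which macrophages make themselves. Their log2 fold changes were -0.57, -0.01 and -0.02, and none passed. C1qa stood at 7277, 847 and 984 CPM in the day 0 Csf1r-EP4-/- libraries, at 2452 and 1772 CPM in the WT ones, and from 751 to 2998 CPM at day 39. One day 0 library alone carried the highest value, and the summed complement list had a ratio of 0.975. That ratio was 0.765 without the 2 libraries that stood apart and 1.23 without library 1, and C1qa was at -1.11 and 0.39. C1qb and C1qc were at -0.47 and -0.82 without the pair and at 0.39 and 0.21 without library 1. Apoe, which carries lipid out of macrophages, was at 12169 ± 3895 CPM (SD, n = 5) and 8964 ± 2580.2 CPM (SD, n = 6), a log2 fold change of -0.45 ± 0.30 (SE), which was -0.82 without the pair and -0.29 without library 1. Among the 5 abundant lysosomal genes, the saposin precursor Psap was at 0.04, the proteases Ctss and Ctsb at 0.42 and 0.07, and the membrane proteins Cd63 and Lamp1 at 0.38 and -0.88. Without the pair all 5 were below 0, with Cd63 at -0.03, Ctss at -0.15, Psap at -0.52, Ctsb at -0.70 and Lamp1 at -1.58. Without library 1 the first 4 were at 0.61, 0.92, 0.41 and 0.59, and Lamp1 at -0.69. The iron-storage chains Fth1 and Ftl1 were at 0.26 and -0.02, at -0.19 and -0.64 without the pair, and at 0.58 and 0.39 without library 1. None of these passed.

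Csf1r itself had 798 to 1506 CPM at day 0 and 383 to 838 CPM at day 39. Of the late libraries, 4 were below the lowest early one, and all 6 were below the day 0 median. The log2 fold change was -0.91 ± 0.93 (SE), with an edgeR adjusted p of 0.867, and it was -1.22 without the 2 day 0 libraries that stood apart. The summed resident macrophage list had a ratio of 0.880, and of 0.660 without those libraries (exact permutation p = 0.0476, adjusted p = 0.255). Without library 1 it was 1.0 (exact permutation p = 1.0). Sepp1, a selenoprotein of resident macrophages, and the tetraspanin Cd81 were at -0.33 and -0.19, at -1.16 and -0.70 without the pair, and at 0.11 and 0.12 without library 1. S100a6, a calcium-binding protein on the monocyte list, was at 1.31 ± 0.85 (SE), with 607 to 2351 CPM late and 338 to 1378 CPM early. The transcripts of 3 surface markers of the sort were near 0 in several libraries: Ptprc (CD45) ranged from 0 to 2407 counts, Itgam (CD11b) from 0 to 3336 and Fcgr1 (CD64) from 0 to 2063, and none passed the test.

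Actin genes support phagocytosis and movement. Of the 10 that were abundant, 6 were above 0 and 4 below, from Actn4, which crosslinks filaments, at 1.36 to the small GTPase Cdc42 at -1.0. Actb, among the 5 genes with the highest mean CPM, was at 12018 ± 5475 CPM (SD, n = 5) and 10040.5 ± 2663 CPM (SD, n = 6). The summed actin list had a ratio of 0.941, of 0.785 without the pair and of 1.06 without library 1. Of the 10 abundant actin genes 4 were above 0 without the pair and 8 without library 1, and Actb was at -0.25 with all libraries, -0.63 without the pair and 0.03 without library 1. The 18 abundant ribosomal protein genes gave 13 values above 0 and 5 below, from 0.91 for Rps26 to -1.0 for Rpl37, and Rps9 was at -0.72, or at -0.29 without WT library 2 of day 0. Their whole list of 82 tested genes had 0 calls in either direction and a summed level of 38968 ± 9049 CPM (SD, n = 5) against 39180.3 ± 4599.9 CPM (SD, n = 6), a ratio of 1.01, which was 1.13 without the pair and 0.979 without library 1. Processed copies of such genes can share reads: Wdr89 and the pseudogene Rplp2-ps1 had identical counts in all libraries and are 1 measurement. Chchd2, a mitochondrial protein, was at -0.97 and did not pass.

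Collagen genes, from the stromal and endothelial list, and skeletal muscle actin, from the muscle list, were also among the 100. Col1a2 stood at 1487, 5898 and 6611 CPM in the day 0 Csf1r-EP4-/- libraries and at 519 and 5572 CPM in the WT ones, and from 831 over a median of 1851 to 2982 CPM at day 39. Acta1 stood at 793, 6263 and 4813 CPM and at 598 and 1570.4 CPM, against 581, 883 and 1132 CPM as the lowest, median and highest of day 39. The log2 fold changes of Acta1, Col1a2, Col1a1 and Col3a1 were -1.35, -1.07, -0.85 and -0.33, and none passed. Without the 2 libraries that stood apart, Acta1 was at -0.21, Col1a2 at -0.56, Col1a1 at -0.23 and Col3a1 at -0.01. Without library 1 they were at -1.55, -1.27, -1.01 and -0.56. The summed level of the 22 stromal and endothelial genes ran from 4089 to 24087 CPM at day 0 and from 7230.3 to 13446 CPM at day 39, and that of the 24 muscle genes from 3103 to 28308 and from 4928 to 19677 CPM. Whether cells of other types had a part in any difference above was not tested.

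Markers of epithelium held no abundant gene. Of 34 tested, 2 were past the threshold, the goblet cell lectin Zg16 and Phgr1 of absorptive cells, both higher at day 39. Both passed the filter on low counts through day 39 alone and are given as a description with no test. The summed level of all 38 epithelial genes in the files, whether or not they passed the filter, stood at 3517, 495 and 1552 CPM in the day 0 Csf1r-EP4-/- libraries and at 1556 and 2926 CPM in the WT ones, and ran from 5056 over a median of 10090.5 to 21934 CPM at day 39. The groups did not overlap. The ratio of 5.66 had an exact permutation p of 0.00866 and an adjusted p of 0.130, and it was 4.27 without the 2 day 0 libraries that stood apart (exact permutation p = 0.0476, adjusted p = 0.255). With Zg16 and Phgr1 taken out of the sum it was 5.13, and the groups still did not overlap. The T and NK cell list had 11 of 15 genes at 0 in all libraries, Cd3e among them, and the B and plasma cell list 5 of 12, among them Cd79a and Ms4a1. The summed neutrophil markers reached 85.4 CPM at day 0 and 307 CPM at day 39. In the same 11 libraries the level of Malat1 and Rn45s and that of the epithelial list were higher at day 39. The part of epithelial RNA in the rise of either was not tested.

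**Figure D4:**
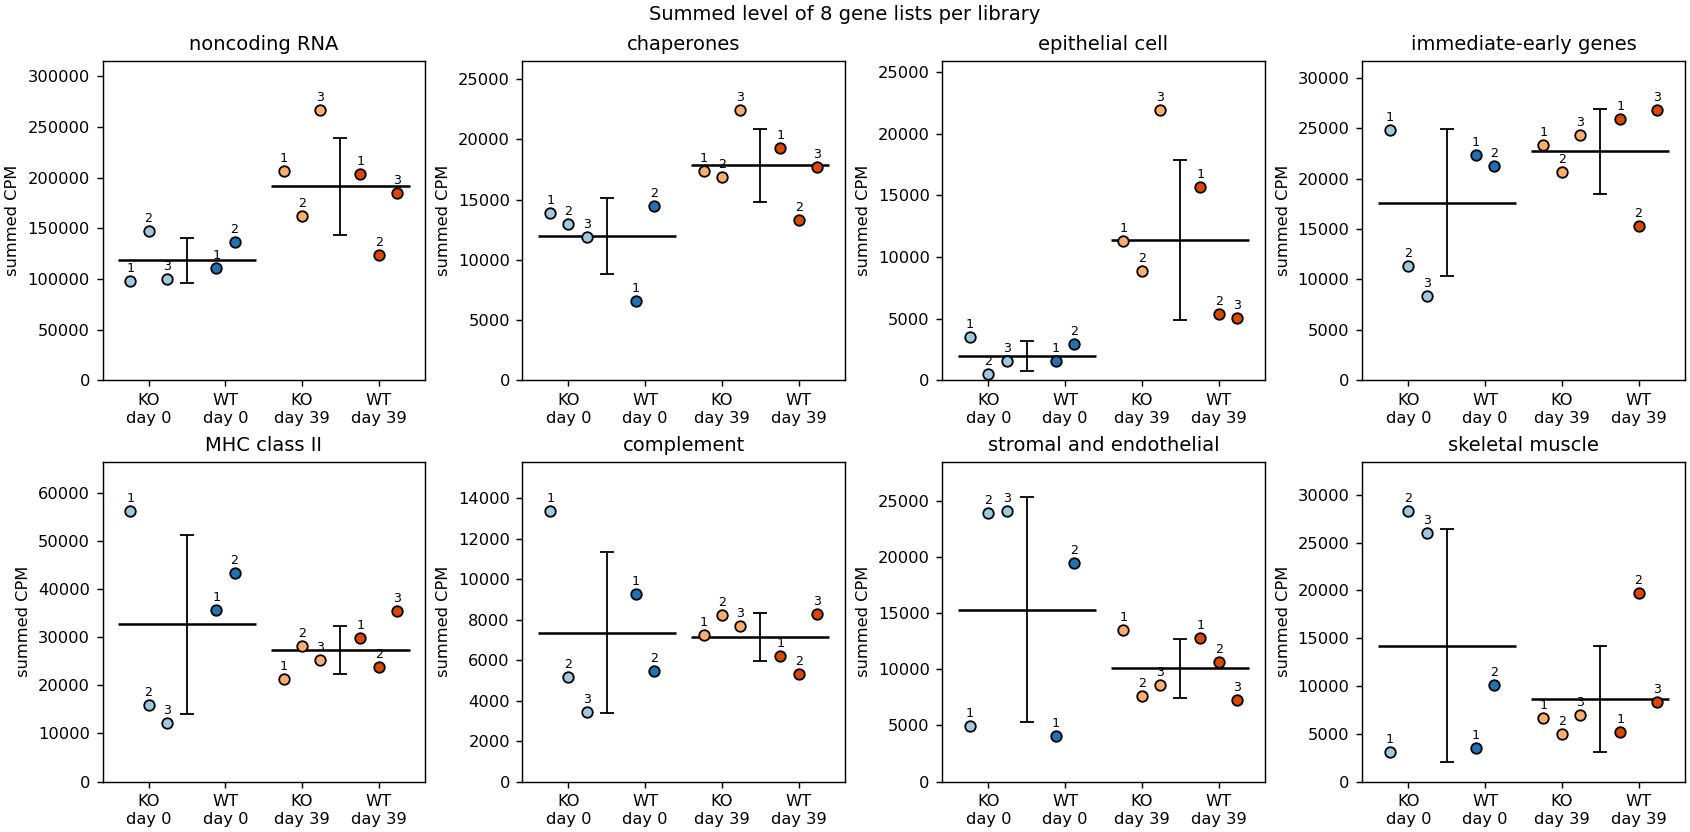
Summed level of 8 gene lists in each library. The vertical axes are summed CPM from 0, points are libraries with their replicate number, KO stands for the Csf1r-EP4-/- label, and the bars are the mean and SD over the 5 day 0 and the 6 day 39 libraries. The epithelial list does not overlap between the days, and the stromal and muscle lists are highest in day 0 libraries Csf1r-EP4-/- 2 and 3.

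The abundant genes as a group had no direction that held without either set of day 0 libraries. The log2 fold change was above 0 for 61 of them, against 50.8% of all tested genes, with a median of 0.15 against 0.06. That median was -0.12 without the pair and 0.38 without library 1. It was within 0.5 of 0 for 61, and beyond 1 for 10, of which 8 were higher and 2 lower. The median size of the log2 fold change was 0.42 over the abundant genes, 1.10 over 951 others that averaged 1000 counts or more, and 3.09 over all tested genes. Those 951 had under 1000 counts in at least 1 library, and 9 of them were called higher (0.946%) and 1 lower (0.105%). All of these calls except Sprr2a2 and Ubxn4, described below, passed the filter on low counts through 1 day alone. The 2 shares are therefore a description with no test. Among the lists, 0 genes were called in either direction of 9 tested for MHC class II, 12 for MHC class I, 16 each for complement and NF-kB, 25 for resident macrophages, 38 for lysosomes, 39 for immediate-early genes and 42 for actin. Of the 30 list sums and shares, 3 had an exact permutation p under 0.05, those of chaperones, epithelium and noncoding RNA (p = 0.0130 for the last, which is almost only the 2 called genes), and 0 passed after adjustment. Without the 2 day 0 libraries that stood apart 5 had such a p, and again 0 passed after adjustment. A single list sum could not pass over 30 even at 0.0021645, the smallest exact permutation p possible with all libraries. Without the 2 libraries there are fewer splits, and the limit is stricter. The 0 after adjustment therefore cannot show that no list differed. The test of the difference between the genotype labels called 0 of the 100 abundant genes and 0% of all tested genes. At an unadjusted p under 0.05 it gave 0 of the 100 and 1006 of the 6987. Of the 100, it gave 6 with the spread estimated on the abundant genes alone, 7 in limma-voom, 8 without library 1 and 0 in DESeq2. DESeq2 called 908 of all tested genes in that test and limma-voom 13, and each called 0 of the 100.

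Outside the abundant genes, 23 genes were called higher and 1 lower. Of the 23, 21 passed the filter on low counts, which asks for a minimum in 2 libraries, through day 39 alone, so their calls describe these libraries and support nothing. The other 2, named after their values were seen, were Sprr2a2, a small proline-rich protein of epithelium, and Ubxn4, a protein of the endoplasmic reticulum. Sprr2a2 was at 37, 68.1 and 10.1 CPM in the day 0 Csf1r-EP4-/- libraries and at 389 and 87.2 CPM in the WT ones, and ran from 467 over a median of 1836 to 3624 CPM at day 39. Ubxn4 was at 15.4, 0.129 and 1.44 CPM and at 107 and 13.4 CPM, and ran from 369 to 3174.5 CPM at day 39. The days did not overlap for either gene, with edgeR adjusted p-values of 0.0122 and 0.0284, and of 0.395 for each without the pair. Their log2 fold changes were 4.46 and 6.03 with all libraries and 3.44 and 4.41 without the pair. Tnks, a poly(ADP-ribose) polymerase, Mapkbp1, a scaffold protein, and E4f1, a transcription factor, had 0 counts in all 5 day 0 libraries. Their day 39 counts ran from 1 to 3835, from 1 to 2976 and from 8 to 4234. Against a floor of 3 counts over the day 0 libraries together, their mean levels were at least 4914-fold, 4852-fold and 4988-fold higher at day 39. These genes were among the 21, and their values are a description with no test. The single call in the other direction, Pepd, a dipeptidase chosen after its values were seen, had 2650, 8629 and 1540 counts and then 0 and 2476 at day 0, and 0 or 1 at day 39, and it passed the filter through day 0 alone.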

How the data were processed

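RNA of sorted colon macrophages was made into QuantSeq 3' libraries, per the labels' protocols. The deposited files hold 1 whole number per gene symbol and library, with totals that differ between libraries, and were read as raw counts. The submitters' processing notes name Bowtie2, edgeR and the build hg19, a human build, although the symbols are mouse ones, so no coordinate was taken from the files. Reads were counted by the authors in a way not given in the sources used here, including strand and molecular identifiers.

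From the counts, genes were kept by edgeR's filterByExpr on the 4 groups, scaled by TMM and tested with a robust quasi-likelihood fit (edgeR 4.0.16, R 4.3.3) of day with genotype label as covariate, with Benjamini-Hochberg adjustment over all 6987 tested genes at 0.05. CPM values are over the TMM-scaled sum of tested genes, and each SE was derived from the F statistic (absolute log2 fold change over root F). Summed list levels were tested by an exact two-sided permutation of day over the 462 ways to assign 6 and 5 libraries (SciPy 1.17.1), adjusted over 29 lists and 1 share. The smallest p this allows is 0.0021645. The list of genes of the mitochondrial genome had no entry in the files and was left out.

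The abundant genes and the lists were chosen with earlier results of these data known. Genes were named by rule: calls, the smallest p-values up to 20, the 5 highest mean CPM, the abundant genes of 4 lists, the sort markers, Ptger4 and up to 3 calls per direction outside the abundant genes without overlap and with a mean of at least 10 CPM. The other genes are named as members of their list. Alternatives were other scalings, filters, fits, DESeq2 1.42.0 and limma-voom 3.58.1, and leaving out libraries. The scripts were tested on simulated data.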

Additional observations from a re-analysis of the deposited data

Results flagged for a closer look

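In 6 of 132 groups of values, 1 library lay farther from the others than Dixon's critical value allows, which chance alone gives in about 1 in 20 groups. At day 0, C1qa was at 7277 CPM in Csf1r-EP4-/- library 1, against 847 to 2452 CPM in the other 4. The summed nuclear oxidative phosphorylation list was at 6954 CPM in WT library 1, below 11823 to 13727 CPM in the others. The B and plasma cell list was at 585 CPM in the same library, against at most 54.8 CPM. The T and NK cell list was at 169 CPM in day 0 Csf1r-EP4-/- library 2, against at most 6.6 CPM. At day 39, WT library 2 had 308 CPM of the T and NK cell list, against at most 1.29 CPM, and 19677 CPM of the skeletal muscle list, against 4928 to 8321 CPM.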

How the results depend on the processing

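The 2 calls among the abundant genes depended on the setting, and 0 abundant genes were called lower in any. DESeq2 size factors, library size alone, TMM on the abundant genes and the spread of the abundant genes alone each called 1 higher, Malat1, as did the WT libraries alone. Upper-quartile scaling, DESeq2, no filter, a filter on an average of 1000 counts, the Csf1r-EP4-/- libraries alone and leaving out day 0 Csf1r-EP4-/- libraries 2 and 3 (chosen after seeing the data) called 0. Leaving out single libraries gave 0 to 2, with 0 without either WT library of day 0, where 9843 and 9909 genes were tested. A minimum mean of 1000 CPM gave 3 calls among 81 genes.

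Over all genes, higher and lower calls were 25 and 1. They were 7 and 0 with DESeq2 size factors, 6 and 0 with library size, 1 and 26 with upper quartile, 15 and 5 with TMM on the abundant genes, 523 and 592 with DESeq2, 132 and 25 with limma-voom, 43 and 8 without robust fitting, 1 and 0 without a filter, 0 and 0 with the filter on an average of 1000 counts (49 at an unadjusted p under 0.05), 2 and 0 in WT, 4 and 1 in Csf1r-EP4-/-, and 5 and 0 without the 2 day 0 libraries. There were 5 lower calls without the genotype covariate and 3 with 1 coefficient per group. Leaving out single libraries gave 1 to 17 higher and 0 to 4 lower. The causes were not tested.

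The median over all tested genes moved from 0.06 to -0.11 with DESeq2 size factors, -0.14 with library size, -0.17 with TMM on the abundant genes, -0.60 with upper quartile and 1.41 without the 2 day 0 libraries. In that last setting 9153 genes were tested, against 6987 with all libraries. The median of the abundant genes was -0.74 with upper quartile, where Rn45s was at -0.32, which is 0.27 above the median of all genes. The test between the labels, with 0 calls over all genes, gave 908 with DESeq2, 5 with upper quartile, 13 in limma-voom, 4 without robust fitting, 2 with each of DESeq2 size factors, library size and TMM on the abundant genes, 0 in the other fits with all libraries and 0 to 8 without single libraries. Abundant genes among them were 1 with upper quartile and 1 without robust fitting. The day ratio of the share of counts in the abundant genes was 1.08, and 0.978 without the 2 libraries. Libraries of the same number in their titles had correlations of -0.0156 to 0.0685 over all genes in 15 pairs and of -0.125 to 0.393 over the abundant genes. Over the abundant genes, 5 of 15 such pairs and 8 of 30 pairs of other numbers were over 0.1, so the numbers were not taken to pair the libraries. WT library 2 of day 0 was taken as number 2 here and in the replicate block, and its other number, 3, was not tried. With a replicate block 10 genes were called higher and 0 lower, with the same 2 abundant genes called. For the 38 named genes that did not pass, 83 of 1024 alternative values changed sign and 1 passed, Il1b in limma-voom. The SE of the log2 fold change ran from 0.108 to a median of 0.84 over the abundant genes, and no limit of detection was set.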
